A study of Mus musculus with 2 samples.

Results

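The cadherins described here are 38 genes of mouse forebrain: 17 classical cadherins of types I and II, Cdh13, the tip-link genes Cdh23 and Pcdh15, 9 nonclustered protocadherins, 3 Celsr genes, 4 Fat genes and 2 Dachsous genes. They were chosen by name, and all 38 were found among the 43346 genes with Ensembl identifiers in the gene tables of both libraries. Total RNA was sequenced from forebrain of B6NCrl mouse embryos at 16.5 days of gestation, without any transgene, mutation or treatment. The series has 1 group of 2 biological replicates, each a pool of male and female embryos, and the pool of replicate 2 came from 41 embryos. Each library started from 10 ng of RNA longer than 200 nt with ERCC spike-in RNAs added, and the genes of replicate 1 held 31211128 expected counts and those of replicate 2 held 26957198. No conditions could be compared, so the results are levels, the make-up of transcripts and the difference between the pools, with no p-value.

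Cadherins are calcium-dependent adhesion proteins of the cell surface. The tail of a classical cadherin binds beta-catenin and p120-catenin, which link junctions to actin, and in the embryonic brain Cdh2 holds together the apical junctions of radial glia, the neural stem cells. Type II cadherins and delta-protocadherins are known for patchy expression that marks layers, nuclei and axon tracts, whereas Celsr proteins act in planar cell polarity and axon guidance and Fat and Dachsous proteins bind each other between neighbouring cells.

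Levels are given in TPM, transcripts scaled to a fixed sum per library and corrected for length, and errors are SD over the 2 libraries (n = 2). Of the 38 genes, 34 reached 1 TPM in both libraries, or 89.5%, against 60.7% of 21474 protein-coding genes. At 10 TPM or more were 16 of the 38, or 42.1%, against 40.9% of protein-coding genes. The median over the 38 genes was 9.61 TPM, and it was 5.05 TPM over protein-coding genes. Together the 38 genes summed to 856 in replicate 1 and 849 TPM in replicate 2. Between neighbours in the order of mean levels, the libraries were separated in 12 of 37 pairs and overlapped in 25. At the top the libraries of Cdh2, Pcdh9, Cdh13 and Cdh4 did not overlap with each other, and at the low end neither did those of Cdh3, Dchs2, Cdh19 and Fat2. Between Dchs1 and Fat1 every neighbour overlapped with the next.

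**Figure D1:**
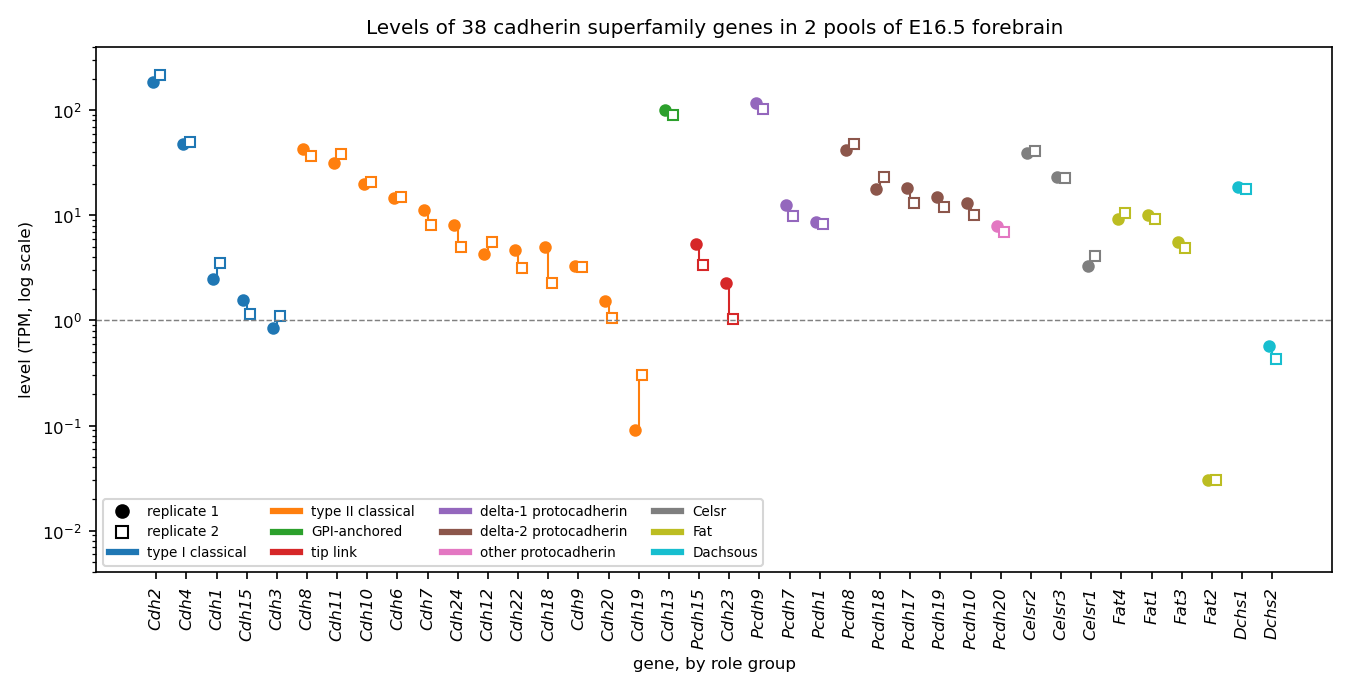
Level in TPM (log scale) of each of the 38 genes in replicate 1 (filled circles) and replicate 2 (open squares), by role group in colour, with a dashed line at 1 TPM. Cdh2, Pcdh9 and Cdh13 stand highest, at 90.3 TPM or more in each library, and Fat2 is lowest at 0.030 TPM in both.

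The tissue label was checked first with marker genes. All 8 forebrain markers exceeded 10 TPM in both libraries, and none of 6 midbrain and hindbrain markers reached 1 TPM in both. Those 6 summed to 0.66 in replicate 1 and 3.23 TPM in replicate 2, with Hoxa2 and Hoxb4 at 0 counts in both. Gata3 had 16 counts in replicate 1 and 93 counts in replicate 2, and was the only one of them with enough counts to compare, at a log2 ratio of -2.74. The pools differed in the levels of marker genes of tissues around and beneath the cortex. Genes of cartilage, bone and airway summed to 16.5 in replicate 1 and 70.6 TPM in replicate 2. All 6 differed by the 2-fold rule given below, beside 1.37% of all genes compared. The marker lists were chosen with earlier results of these data known, so such counts are a description and not independent evidence. Meningeal fibroblast genes summed to 405 in replicate 1 and 686 TPM in replicate 2, with 10 of 10 higher in replicate 2. In the other direction, hypothalamic genes summed to 33.8 in replicate 1 and 11.02 TPM in replicate 2, and thalamic genes to 94.3 in replicate 1 and 55.95 TPM in replicate 2. Within the forebrain wall, counts scaled by TMM, as below, were higher in replicate 2 for 7 of 7 radial glia genes (median log2 ratio -0.24). They were higher in replicate 1 for 5 of 6 neuronal genes (median 0.23). In TPM, the radial glia gene Pax6 was higher in replicate 1, at 35.05 against 33.87 in replicate 2. Scaling on spike-in counts moves every log2 ratio by -0.55. On that scale the neuronal median and the thalamic median, 0.52 by TMM, change sign. In bulk tissue fewer cells of a type and less RNA per cell cannot be told apart. The part of these tissues in the differences given below was not tested.

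Several of these genes are read in more than 1 form, and the forms differ in coding sequence. The sequences below are shown because they are the stretches that separate the abundant forms. They were read from GENCODE M21 transcripts on GRCm38, the same assembly as mm10, and are written 5′ to 3′ on the coding strand, with flanking coding bases in lower case. In the first pair, capitals mark coding bases that the longer form has and the shorter form lacks. The Pcdh8 stretch (chr14:79768497-79768787, minus strand) has 291 bases, or 97 codons, and is in Pcdh8-201 but not in Pcdh8-204. The Pcdh19 stretch (chrX:133682092-133682232, minus strand) has 141 bases, or 47 codons, and is in Pcdh19-202 but not in Pcdh19-203, which also lacks a single codon further on.
Pcdh8-201: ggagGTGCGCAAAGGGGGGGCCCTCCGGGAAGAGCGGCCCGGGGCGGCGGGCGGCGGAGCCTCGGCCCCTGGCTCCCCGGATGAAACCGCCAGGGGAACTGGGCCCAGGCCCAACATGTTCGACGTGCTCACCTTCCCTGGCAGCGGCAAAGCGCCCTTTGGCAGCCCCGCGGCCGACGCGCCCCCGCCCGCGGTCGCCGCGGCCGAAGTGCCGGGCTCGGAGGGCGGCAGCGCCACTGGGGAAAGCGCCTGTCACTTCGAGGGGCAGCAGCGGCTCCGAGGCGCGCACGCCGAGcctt
Pcdh19-202: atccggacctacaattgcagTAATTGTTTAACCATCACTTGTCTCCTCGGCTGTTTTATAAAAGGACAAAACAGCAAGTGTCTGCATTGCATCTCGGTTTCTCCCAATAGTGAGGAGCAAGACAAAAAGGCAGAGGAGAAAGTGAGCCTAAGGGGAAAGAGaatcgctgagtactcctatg
In the next set, capitals mark the coding end of 3 forms of Cdh8 and 3 forms of Pcdh10. They run from the point where the forms part up to the base before the stop codon, unless shown in part. Cdh8-207 and Pcdh10-204 part from the others at another base and are not shown. The Cdh8 ends lie at chr8:99024914-99024957 for Cdh8-204 (44 bases) and chr8:99029853-99029911 for Cdh8-201 (59 bases), both on the minus strand. The end of Cdh8-203 (chr8:99030568-99030875, minus strand) has 308 bases, of which the first 120 are shown.
Cdh8-204: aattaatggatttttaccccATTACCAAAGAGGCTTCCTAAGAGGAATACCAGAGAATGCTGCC
Cdh8-201: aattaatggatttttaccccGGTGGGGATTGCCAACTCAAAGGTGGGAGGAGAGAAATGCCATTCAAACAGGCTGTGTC
Cdh8-203: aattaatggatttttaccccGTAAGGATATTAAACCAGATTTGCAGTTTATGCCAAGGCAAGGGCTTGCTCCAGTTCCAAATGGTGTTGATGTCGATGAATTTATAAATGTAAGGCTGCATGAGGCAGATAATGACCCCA
The Pcdh10 ends lie on the plus strand at chr3:45419407-45419423 for Pcdh10-202 (17 bases), chr3:45399323-45399360 for Pcdh10-203 (38 bases) and chr3:45432474-45432541 for Pcdh10-201 (68 bases).
Pcdh10-202: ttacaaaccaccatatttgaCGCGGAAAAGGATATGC
Pcdh10-203: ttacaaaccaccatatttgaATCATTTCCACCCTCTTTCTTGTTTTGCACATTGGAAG
Pcdh10-201: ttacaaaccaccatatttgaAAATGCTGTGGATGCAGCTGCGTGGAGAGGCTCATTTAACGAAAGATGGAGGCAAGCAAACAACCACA
The lower-case run is the same in the 3 Cdh8 lines and in the 3 Pcdh10 lines, so the forms part at the same base and then end differently.

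Among the type I classical cadherins, Cdh2 (N-cadherin, chromosome 18, 16588877 to 16809246) led all 38 genes with 185.56 in replicate 1 and 215.49 TPM in replicate 2. Cdh4 (R-cadherin), the other abundant type I cadherin of embryonic brain, had 47.7 in replicate 1 and 50.3 TPM in replicate 2. Cdh1 (E-cadherin), the epithelial cadherin, had 2.47 in replicate 1 and 3.55 TPM in replicate 2. The order Cdh2, Cdh4, Cdh1 therefore held in both libraries, with a log2 ratio of 6.08 ± 0.22 for Cdh2 over Cdh1 and 2.03 ± 0.10 for Cdh2 over Cdh4. Cdh15 (M-cadherin), known from muscle, was at 1.55 in replicate 1 and 1.16 TPM in replicate 2. Cdh3 (P-cadherin) was lowest of the 5, at 0.84 in replicate 1 and 1.10 TPM in replicate 2.

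The 12 type II cadherins had a median of 5.73 TPM and spanned a wide range. Cdh8, a cadherin of cortical and thalamic areas, had 42.7 in replicate 1 and 36.4 TPM in replicate 2. Cdh11, which is expressed in mesenchyme as well as in brain, had 31.7 in replicate 1 and 38.6 TPM in replicate 2. Cdh10 had 19.7 in replicate 1 and 20.6 TPM in replicate 2. The levels of Cdh8 and Cdh11 crossed between the pools, Cdh8 being higher in replicate 1 and Cdh11 in replicate 2, so their order was not set. Cdh6, a marker of cortical and other brain regions, followed at 14.7 in replicate 1 and 15.1 TPM in replicate 2. Cdh7 was at 11.2 in replicate 1 and 8.01 TPM in replicate 2. Cdh10 stood above Cdh6 in both libraries and above Cdh9, a synaptic cadherin of the hippocampus, by a log2 ratio of 2.63 ± 0.06. Cdh9, Cdh12, Cdh18, Cdh20, Cdh22 and Cdh24 had mean levels between 1.29 and 6.55 TPM. Cdh19, known from Schwann cell precursors and other neural crest cells, had 0.090 TPM from 4 counts in replicate 1 and 0.30 TPM from 7 counts in replicate 2.

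Cdh13 (T-cadherin, chromosome 8, 118283733 to 119324921) is attached to the membrane by a lipid anchor and has no cytoplasmic tail. It had 101.29 in replicate 1 and 90.3 TPM in replicate 2, below Cdh2 in both. Pcdh15 and Cdh23, whose products form the tip links of inner ear hair cells, were far lower. Pcdh15 had 5.36 in replicate 1 and 3.38 TPM in replicate 2, and Cdh23 had 2.26 in replicate 1 and 1.04 TPM in replicate 2.

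Of the delta-1 protocadherins, Pcdh9 (chromosome 14, 93013410 to 93890679) was highest at 116.94 in replicate 1 and 101.92 TPM in replicate 2. Pcdh7 had 12.4 in replicate 1 and 9.81 TPM in replicate 2. Pcdh1 had 8.72 in replicate 1 and 8.19 TPM in replicate 2. Pcdh9 thus exceeded Pcdh7 by a log2 ratio of 3.31 ± 0.10 and Pcdh1 by 3.69 ± 0.08, and the libraries of each pair did not overlap. All 5 delta-2 protocadherins, several of which bind the actin-regulating WAVE complex through their tails, exceeded 10 TPM in both libraries. Pcdh8, in rat known as arcadlin and induced by neuronal activity, led at 42.1 in replicate 1 and 47.9 TPM in replicate 2. Pcdh18 had 18.0 in replicate 1 and 23.1 TPM in replicate 2, whereas Pcdh17, which acts in axon growth and at synapses, had 18.4 in replicate 1 and 13.1 TPM in replicate 2. Pcdh19, an X-linked gene whose human orthologue is mutated in an epilepsy of girls, and Pcdh10, which acts in the growth of striatal axons, had mean levels of 13.5 ± 2.06 TPM and 11.6 ± 2.08 TPM. On coding transcripts only, neither exceeded 10 TPM in both libraries. Pcdh19 then had 9.35 in replicate 1 and 8.11 TPM in replicate 2, and Pcdh10 had 11.11 in replicate 1 and 9.75 TPM in replicate 2. Pcdh8 stood above the other delta-2 genes in both libraries, and below it each gene overlapped with the next in the order. Pcdh20 had 7.92 in replicate 1 and 6.95 TPM in replicate 2.

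The Celsr genes, atypical cadherins with a seven-pass membrane domain, kept the same order in both pools. Celsr2 (chromosome 3, 108390851 to 108415552) had 39.5 in replicate 1 and 40.7 TPM in replicate 2. Celsr3, which forebrain axon tracts need to form, had 22.9 in replicate 1 and 22.5 TPM in replicate 2. Celsr1, a gene of dividing progenitors, had 3.27 in replicate 1 and 4.08 TPM in replicate 2. Celsr2 exceeded Celsr3 by a log2 ratio of 0.82 ± 0.05, and Celsr3 exceeded Celsr1 by 2.63 ± 0.25.

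Among the giant Fat and Dachsous cadherins, Dchs1, the ligand of Fat4, had 18.5 in replicate 1 and 17.8 TPM in replicate 2. Fat4 had 9.14 in replicate 1 and 10.6 TPM in replicate 2, and Fat1 had 9.97 in replicate 1 and 9.24 TPM in replicate 2. Dchs1 stood above both, by a log2 ratio of 0.88 ± 0.19 over Fat4, while Fat4 and Fat1 changed order between the libraries with a log2 ratio of 0.03 ± 0.23. That crossing rests on noncoding models, which held 29.2% of the TPM of Fat1 in replicate 1 and 20.6% in replicate 2. These are short models of 360 and 693 nt, and they held only 1.75% of its expected counts in replicate 1 and 1.09% in replicate 2. On coding transcripts only, Fat4 had 8.40 in replicate 1 and 9.56 TPM in replicate 2. Fat1 was lower in both, at 7.06 in replicate 1 and 7.34 TPM in replicate 2. Its leading coding model, Fat1-203, has another spliced length in GENCODE M21 than in the authors' table. Fat3 had 5.57 in replicate 1 and 4.91 TPM in replicate 2. Dchs2 was at 0.57 in replicate 1 and 0.43 TPM in replicate 2, and Dchs1 exceeded it by a log2 ratio of 5.19 ± 0.25. Fat2, known from cerebellar granule cells, had 8 counts in replicate 1 and 7 in replicate 2, or 0.030 TPM in each. For Dchs2, a gene on the opposite strand overlaps its exons and holds counts equal to 9.94% of its own, and for Fat4 the figure is 4.18%. Whether strand was used in counting is not given in the sources used here. Such overlaps exist for 9 of the 38 genes, with Pcdh7 at 3.04%, Fat1 at 2.12% and the others below 0.3%.

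The pools were compared on expected counts scaled by TMM, as a log2 ratio of replicate 1 over replicate 2 with a 95% Clopper-Pearson counting interval. Differing genes are those 2-fold or more apart whose interval left out equality, with a minimum of 50 counts on average. Of 36 genes with enough counts, 2 differed, Cdh18 and Cdh23, both higher in replicate 1. Over all 13927 genes compared the share was 1.37%, made up of 1.01% with more in replicate 1 and 0.366% with more in replicate 2, so 2 of 36 (5.56%) rests on very few genes. The intervals left out equality for 23 of the 36 genes, 15 higher and 8 lower in replicate 1, or 63.9% against 50.5% of all genes. An interval narrows as the reads of a gene increase, and these shares were not matched for read depth. The median log2 ratio was 0.12, beside -0.01 for all genes. These directions are relative to the TMM scaling. Scaling on spike-in counts moves every log2 ratio by -0.55, and on that scale the median of the 36 genes is -0.43 and that of all genes -0.56. It also turns the balance of calls, to 21 genes with more in replicate 1 and 515 with more in replicate 2, where TMM gives 140 with more in replicate 1 and 51 with more in replicate 2. Neither Cdh18, at 0.48, nor Cdh23, at 0.78, differs by the rule on that scale, and Cdh1 does, with more in replicate 2.

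Cdh18, a type II cadherin of the brain, had 4.97 TPM from 186 counts in replicate 1 and 2.25 TPM from 77 counts in replicate 2, a log2 ratio of 1.03 (interval 0.65 to 1.44). Cdh23 had 93 counts in replicate 1 and 31 counts in replicate 2, a log2 ratio of 1.33 (0.75 to 1.99). Both rest on few reads, and with a mean count of at least 200 required, 29 of the genes could be compared and none differed by the same rule. Short of 2-fold, Cdh24 had 8.09 in replicate 1 and 5.02 TPM in replicate 2, a log2 ratio of 0.70 (0.46 to 0.95). Pcdh15 had a log2 ratio of 0.67 (0.42 to 0.92), Cdh22 of 0.58 (0.31 to 0.85), Cdh20 of 0.55 (0.10 to 1.01) and Pcdh17 of 0.51 (0.43 to 0.59). Pcdh17 has the tightest interval of these, from 3250 counts in replicate 1 and 1941 counts in replicate 2. The remaining genes with intervals above equality had smaller log2 ratios. They were Pcdh7 at 0.28, Cdh8 at 0.22, Pcdh19 and Fat3 at 0.20, and Celsr3 at 0.19. Pcdh10 was at 0.18, Cdh13 at 0.15 and Pcdh9 at 0.14. Hypothalamic and thalamic markers and 5 of 6 neuronal markers were also higher in replicate 1, and their part in these ratios was not tested.

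On the other side, Cdh1 had the lowest log2 ratio, -0.58 (-0.87 to -0.30), from 190 counts in replicate 1 and 242 counts in replicate 2. Cdh12 followed at -0.37 (-0.56 to -0.18), Pcdh18 at -0.33 (-0.43 to -0.24) and Celsr1 at -0.30 (-0.46 to -0.15). Cdh11 had a log2 ratio of -0.27 (-0.35 to -0.19), Cdh2 of -0.22 (-0.25 to -0.18), Pcdh8 of -0.18 (-0.26 to -0.11) and Fat4 of -0.17 (-0.25 to -0.09). None of these is 2-fold. Meningeal, bone and radial glia markers were higher in replicate 2 as well, with a median log2 ratio of -0.72 for the meningeal list, and their part was not tested. The summed counts of the 5 type I cadherins gave a log2 ratio of -0.18 (-0.20 to -0.15), set mostly by Cdh2. Those of the 3 delta-1 protocadherins gave 0.16 (0.12 to 0.21), set mostly by Pcdh9. The interval included equality for the other 13 genes: Cdh3 at -0.37 (-0.89 to 0.15), Cdh4, Cdh6, Cdh7, Cdh9, Cdh10, Cdh15, Pcdh1, Pcdh20, Celsr2, Fat1, Dchs1 and Dchs2.

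**Figure D2:**
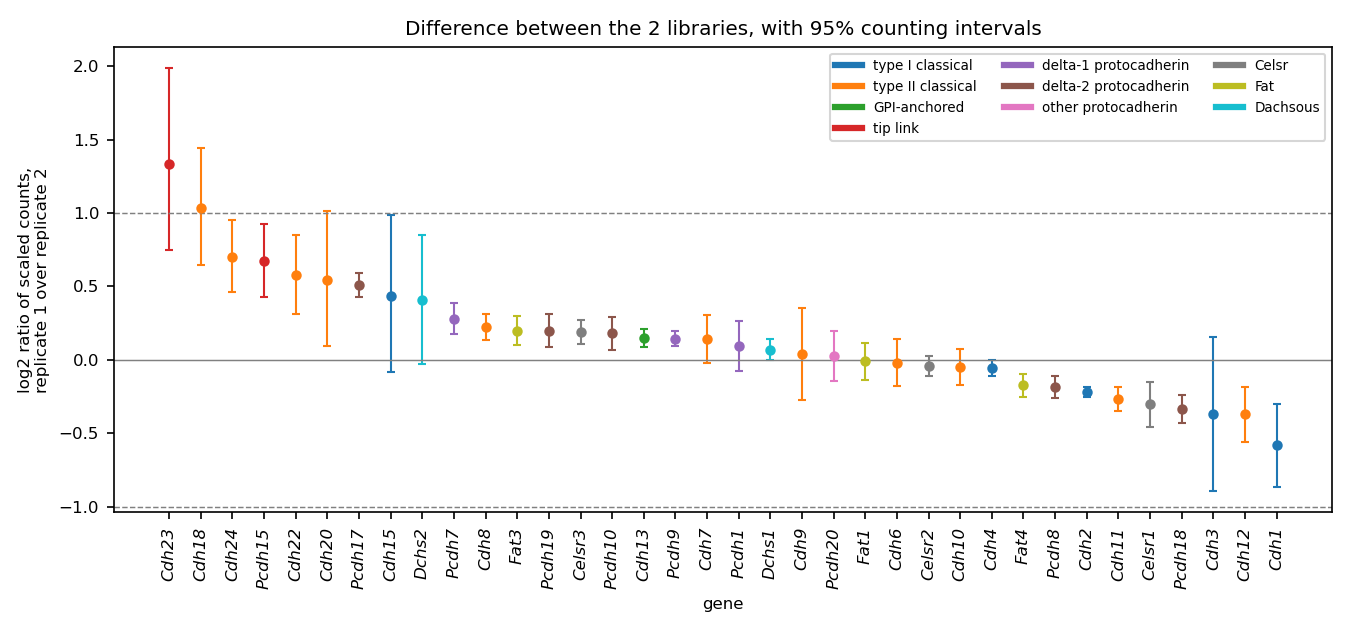
Log2 ratio of scaled counts, replicate 1 over replicate 2, for the 36 genes averaging 50 counts or more, coloured by role group. Bars are 95% counting intervals, the solid line marks equality and the dashed lines 2-fold, beyond which only Cdh23 (1.33) and Cdh18 (1.03) lie.

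The authors also divided the reads of each gene among its transcripts by a statistical model, and the shares below rest on that division. Each model described by name below has the same spliced length in GENCODE M21 as in the authors' table, and no protein was measured. Of the 34 genes at 1 TPM or more, 10 had a single listed transcript and 24 had several. The leading transcript, the one with the most TPM, was the same in both libraries for 22 of the 24, or 91.7%, against 89.9% of 9539 protein-coding genes with several transcripts. The exceptions were Cdh18, led by Cdh18-202 in replicate 1 and Cdh18-203 in replicate 2, and Pcdh19, led by Pcdh19-204 in replicate 1 and Pcdh19-203 in replicate 2. Pcdh19-204 is a model of 335 nt that rests on 25 counts in replicate 1 and 14.7 counts in replicate 2. The leading transcript held a median of 65.0% of the gene's TPM, against 69.0% over protein-coding genes. It held at least 80% in both libraries for 7 of the 24 genes, and under 50% in both for 6.

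Pcdh8 was divided between the forms shown above. Pcdh8-204, which lacks the 97 codons and has 973, made up 70.6% of the gene's TPM in replicate 1 and 58.9% in replicate 2. Pcdh8-201, with 1070 codons, made up 26.0% in replicate 1 and 38.9% in replicate 2. The shorter form was the more abundant in both libraries, and its lead was larger in replicate 1. Pcdh19-203, which lacks the 47-codon exon, held 29.6% of Pcdh19 in replicate 1 and 34.1% in replicate 2, and Pcdh19-202, which has it, held 17.5% in replicate 1 and 21.7% in replicate 2. Of the TPM of these 2 forms, the one with the exon took 38.02 ± 1.29%.

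Cdh8 had 4 coding forms with different ends. Cdh8-204, with 711 codons, led at 39.8% of the gene's TPM in replicate 1 and 48.2% in replicate 2. Cdh8-203, the longest at 799 codons, held 19.3% in replicate 1 and 19.6% in replicate 2. Cdh8-201 held 15.0 ± 0.68% and Cdh8-207 8.92 ± 1.30%. By expected counts the gap was narrower, with Cdh8-204 at 33.5% in replicate 1 and 39.9% in replicate 2 and Cdh8-203 at 28.0% in replicate 1 and 27.9% in replicate 2. The 3 spliced forms of Pcdh10 with the ends shown kept 1 order in both libraries. Pcdh10-202 held 39.1% in replicate 1 and 50% in replicate 2, Pcdh10-203 held 20.6% in replicate 1 and 25.3% in replicate 2, and Pcdh10-201 held 13.2% in replicate 1 and 12.1% in replicate 2. Pcdh10-204, a single exon with 896 codons, held 11.9% in replicate 1 and 8.56% in replicate 2.

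In Cdh2, Cdh2-202 (849 codons), whose model starts at 16670069 on the minus strand, held 63.7% of TPM in replicate 1 and 62.8% in replicate 2. Cdh2-201 (906 codons), which starts upstream at 16809246, held 28.4% in replicate 1 and 32.1% in replicate 2. The models share 2546 coding bases, and 1 coding base is found only in Cdh2-202 and 172 only in Cdh2-201. Pcdh20-201 and Pcdh20-202 share their whole coding sequence of 2856 bases. Pcdh20-201 held 50.6% in replicate 1 and 80.1% in replicate 2, the widest gap between the pools among the pairs described.

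**Figure D3:**
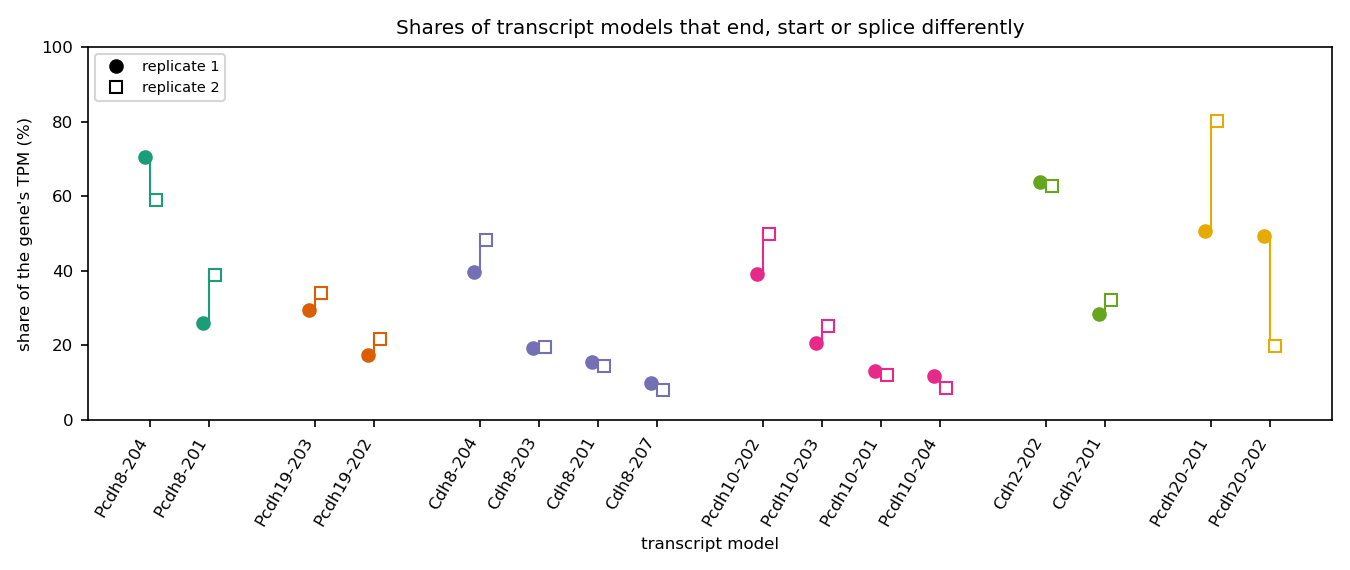
Share of the gene's TPM (percent) held by the named transcript models of 6 genes, in replicate 1 (filled circles) and replicate 2 (open squares). The first-listed model of each gene was the higher in both libraries, and the pools lie farthest apart for Pcdh20-201, at 50.6% in replicate 1 and 80.1% in replicate 2.

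For several of the 38 genes part of the level came from models that are incomplete or noncoding. Noncoding models, such as retained introns, held a median of 9.24% of the gene's TPM over the 24 genes, against 7.78% over protein-coding genes with several transcripts. They held over 20% in both libraries for 7 of the 24, and on average over 20% for 8, against 31.4% of protein-coding genes. The share was highest for Cdh23, at 84.4% in replicate 1 and 92.3% in replicate 2, and for Pcdh15, at 71.2% in replicate 1 and 66.7% in replicate 2. The complete coding transcript of Cdh23, of 10592 nt, was at 0.35 TPM from 68.2 counts in replicate 1 and 0.080 TPM from 13.3 counts in replicate 2. Its noncoding lead, Cdh23-206, is 438 nt long and rests on 7.79 counts in replicate 1 and 4 counts in replicate 2. Much of the TPM of Cdh23 thus comes from a handful of reads on short models. In Pcdh15 the leading model, Pcdh15-224, is a retained intron at 42.6% of TPM in replicate 1 and 31.0% in replicate 2.

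Weight by reads gave another picture for the long genes. In Celsr2, noncoding models held 34.8% of TPM in replicate 1 and 33.1% in replicate 2, but 3.09% of expected counts in replicate 1 and 2.59% in replicate 2. The full-length Celsr2-201 held 80.3% of counts in replicate 1 and 79.96% in replicate 2, and 39.7% of TPM in replicate 1 and 39.9% in replicate 2. In Pcdh9, an incomplete model of 2 exons, Pcdh9-205, held 66.5% of TPM in replicate 1 and 67.2% in replicate 2. By expected counts Pcdh9-205 still led, with 57.1% in replicate 1 and 54.9% in replicate 2. The complete coding models of Pcdh9 came to 27.8 in replicate 1 and 27.2 TPM in replicate 2. On such models Pcdh9 was below Cdh13, which had 66.4 in replicate 1 and 62.1 TPM in replicate 2. Restricted to transcripts annotated as protein-coding, 33 of the 38 genes reached 1 TPM in both libraries, 14 reached 10 TPM, and the median was 7.94 TPM. Under this restriction, which was chosen after seeing the data, Cdh23 was below the count minimum and Cdh18 remained 2-fold apart, with a log2 ratio of 1.64.

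**Figure D4:**
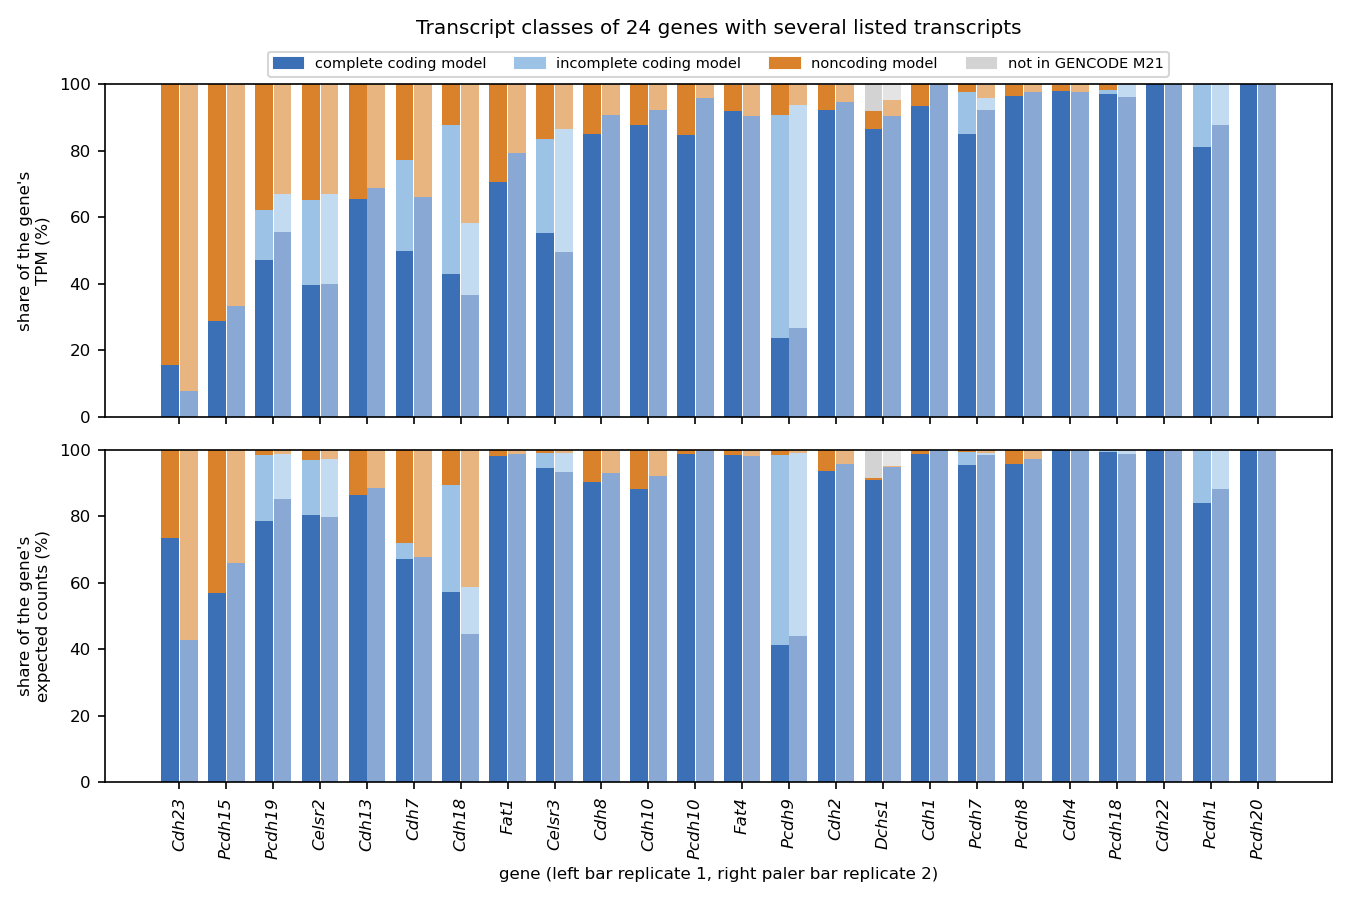
Share of each gene's TPM (upper panel) and expected counts (lower panel) on complete coding, incomplete coding and noncoding models, for the 24 genes with several transcripts, with replicate 1 at left and replicate 2 at right in paler colour. Cdh23 and Pcdh15 have most of their TPM on noncoding models, and in Celsr2 that share is 34.8% of TPM but 3.09% of counts in replicate 1.

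The intracellular partners of these cadherins were read at widely different levels. Of 11 catenins and junction partners, 10 reached 1 TPM in both libraries. None of the 10 compared was 2-fold apart, beside 1.37% of all genes differing by that rule. The interval left out equality for 7 of the 10, beside 50.5% of all genes. Ctnnb1 (beta-catenin) had 421.08 in replicate 1 and 460.13 TPM in replicate 2. Ctnna2, the neuronal alpha-catenin, had 124.39 in replicate 1 and 110.62 TPM in replicate 2, and Ctnna3 was below 1 TPM in both. Ctnna1, which is not restricted to neurons, had 45.3 in replicate 1 and 57.5 TPM in replicate 2. Ctnna2 was higher in replicate 1 with a log2 ratio of 0.17 (0.13 to 0.22) and Ctnna1 in replicate 2 with -0.33 (-0.40 to -0.26).

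For the lists that follow, the shares over all genes compared were 1.37% differing by the 2-fold rule and 50.5% with equality outside the interval. All 10 core planar polarity genes, which work with Celsr proteins, reached 1 TPM, and none was 2-fold apart, with equality outside the interval for 9 of them. Fzd3, a receptor needed with Celsr3 for forebrain tracts, had 42.9 in replicate 1 and 48.7 TPM in replicate 2, and Vangl2 had 33.5 in replicate 1 and 35.8 TPM in replicate 2. All 10 genes of the Fat and Dachsous pathway were detected, with a median of 10.8 TPM and none 2-fold apart, and the interval left out equality for 7. They were led by Tead2, a transcription factor of the Hippo pathway, at 66.5 in replicate 1 and 62.8 TPM in replicate 2. All 8 partners of delta-protocadherins exceeded 10 TPM in both libraries, and for 7 of the 8 the interval left out equality. Among them was Nckap1, a subunit of the WAVE complex, at 85.5 in replicate 1 and 91.6 TPM in replicate 2. Of the 5 genes that process cadherins, Adam10, a protease that cleaves Cdh2, had 49.9 in replicate 1 and 60.9 TPM in replicate 2, and Furin was lowest at 3.67 in replicate 1 and 3.71 TPM in replicate 2.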

How the data were processed

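Total RNA was sequenced from 2 forebrain pools, with 1 gene table and 1 transcript table each. Reads were placed on mm10 and GENCODE M4, per the submitters' processing notes. For the aligner, the counting program and the use of strand, no statement is given in the sources used here. The authors deposited expected counts, not normalized, per the file headers. TPM was deposited scaled with spike-ins inside, which took 5.93% of it in replicate 1 and 4.10% in replicate 2, and FPKM values, per the file headers. The deposited isoform percent gives each transcript's share of its gene, per the file headers.

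Symbols and transcript models came from GENCODE M21 (GRCm38, the assembly of mm10), by identifier without version; 42462 of 43346 genes matched. Rounded expected counts gave TMM factors in edgeR 4.0.16 (R 4.3.3). Ratios are replicate 1 over replicate 2 with a prior count of 0.5, and Clopper-Pearson intervals (scipy 1.17.1) cover counting error only. Amplified reads are not independent molecules, so the intervals may be too narrow even for that error. The libraries differed by more than counting error (chi-square of 18.5 per degree of freedom over 13927 genes), so both were counted. DESeq2 1.42.0 size factors, spike-in and total counts, other minimums, posterior means and each library left out were alternatives. Every member is reported, with the 3 highest and the lowest of each role group and all members 2-fold apart in full; Cdh24, Pcdh15, Cdh22 and others were named after their values were seen. Members and lists were chosen with earlier results of these data known.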

Additional observations from a re-analysis of the deposited data

How the results depend on the processing

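No paired analysis was possible because the series has only 1 group. The 34 genes at 1 TPM in both libraries numbered between 31 and 35 under the other minimums, FPKM, rescaled TPM, coding transcripts only and either library alone. The median of 9.61 TPM was 8.71 to 9.55 TPM with 1 library left out and 7.94 TPM on coding transcripts only. The summed level of 853 TPM was 898 TPM when TPM was rescaled without spike-ins, 754 TPM on coding transcripts only, and 849 to 856 TPM with 1 library left out. The count of 2 genes differing became 1 with spike-in scaling (Cdh1, higher in replicate 2), 0 with a count minimum of 200 and 1 on coding transcripts; it stayed at 2, with the same genes, under DESeq2 size factors, total counts, posterior mean counts, a minimum of 20 and none. With spike-in scaling the log2 ratios were 0.48 for Cdh18 and 0.78 for Cdh23 and the median of the genes was -0.43; every ratio moves by the same amount under it. The median log2 ratio otherwise ranged from 0.07 to 0.14. The leading transcript's median share was 62.0 to 68.0% with 1 library left out and 63.4% by posterior means. The results on sums of TPM and on coding transcripts were alternatives chosen after seeing the data. Depth limits Cdh19 and Fat2, with 4 to 8 counts a library.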

Other observations

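Other members of the cadherin superfamily, outside the 38 genes, were also read. Of 14 such genes, 7 reached 1 TPM in both libraries and 4 reached 10 TPM. Highest were 2 calsyntenins, cadherin-like membrane proteins of axons and synapses, with Clstn3 at 76.0 in replicate 1 and 53.4 TPM in replicate 2 and Clstn1 at 54.3 in replicate 1 and 69.3 TPM in replicate 2. Clstn3 was higher in replicate 1, with a log2 ratio of 0.49 (0.43 to 0.56), and Clstn1 higher in replicate 2, with -0.30 (-0.36 to -0.24). Pcdh11x, a delta-1 protocadherin on the X chromosome, had 23.3 in replicate 1 and 13.6 TPM in replicate 2, a log2 ratio of 0.72 (0.63 to 0.83). Cdh5, the cadherin of endothelial junctions, had 7.65 in replicate 1 and 10.7 TPM in replicate 2, a log2 ratio of -0.47 (-0.63 to -0.30), and all 6 endothelial markers, of which Cdh5 is 1, were higher in replicate 2. The desmosomal genes Dsc2, Dsc3 and Dsg2 and the epithelial cadherins Cdh16, Cdh17 and Cdh26 were below 1 TPM in both libraries. None of the 8 genes of this list with enough counts was 2-fold apart, beside 1.37% of all genes differing by that rule.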
